A study of Homo sapiens with 3 samples.

Results

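Small nucleolar RNA (snoRNA) host genes and the nuclear long noncoding RNAs NEAT1 and MALAT1 were followed through the 27 probes that carry a RefSeq accession of SNHG1, SNHG5, SNHG7, SNHG8, SNHG12, SNHG15, GAS5, ZFAS1, NEAT1 or MALAT1, 10 of 22439 genes named by accession and 27 of 58201 probes other than controls. They comprised 20 probes for 8 host genes and 7 probes for NEAT1 and MALAT1, and every probe was taken on its own because the level of one probe cannot be set against that of another. All 27 were well above background on every array, and each was printed in 1 spot. RNA of TK-10, an established human renal carcinoma line, had been hybridised to 3 Agilent arrays in 1 colour, 1 per condition, so no condition was replicated. One array held RNA of cells given the vehicle, 0.1% DMSO. The array called cordyceps here is labelled as cordyceps at 750 μg/ml, whereas the study describes cordycepin, an adenosine analogue of Cordyceps fungi, at another dose, and the files do not settle which was used. The remaining array was of cells given 10 μM sunitinib, an inhibitor of receptor tyrosine kinases. Treatment lasted 48 h, and the labels give the same medium for all 3, with zinc sulfate (16.7 μM), troglitazone (10 μM) and nicotinamide (10 mM) beside 10% FBS and 1% penicillin-streptomycin.

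A snoRNA host gene carries snoRNAs in its introns. After splicing, the introns are trimmed to snoRNAs, which guide chemical modification and cleavage of ribosomal RNA, while the spliced host RNA of most of these genes is short-lived, since ribosomes engage it and nonsense-mediated decay removes it. Many hosts begin, like ribosomal protein genes, with a C followed by a run of pyrimidines, the 5′ terminal oligopyrimidine tract that ties translation to growth signalling through mTOR. NEAT1 is the RNA scaffold of paraspeckles, nuclear bodies that hold RNA-binding proteins. MALAT1 is an abundant RNA of nuclear speckles, where splicing factors gather.

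Only the annotated start in the promoter entry of each host was read for this tract, so a tract at another start would be missed. The bases from 15 before to 30 from the start, on the transcript's strand, are from RefSeq (GRCh38.p14), and the run of C and T that opens the transcript is in capitals. Promoter entries were matched for 8 of the 10 genes, all but SNHG15 and NEAT1.
SNHG12, chr1:28581844-28581888, minus strand: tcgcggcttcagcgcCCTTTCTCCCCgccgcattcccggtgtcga
SNHG5, chr6:85678704-85678748, minus strand: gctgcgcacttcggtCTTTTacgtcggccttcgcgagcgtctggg
ZFAS1, chr20:49278627-49278671, plus strand: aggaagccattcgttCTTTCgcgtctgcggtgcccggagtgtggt
SNHG7, chr9:136728155-136728199, minus strand: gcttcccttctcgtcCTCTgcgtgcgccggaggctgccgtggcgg
SNHG1, chr11:62855856-62855900, minus strand: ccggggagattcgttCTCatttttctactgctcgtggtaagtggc
SNHG8, chr4:118278747-118278791, plus strand: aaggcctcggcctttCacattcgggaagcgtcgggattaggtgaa
GAS5, chr1:173869016-173869060, minus strand: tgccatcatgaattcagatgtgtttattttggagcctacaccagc

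SNHG12, SNHG5 and ZFAS1 opened with a C and a run of at least 5 bases that were all C or T, 11 bases long in SNHG12 and 5 in the other two. The run was 4 bases in SNHG7 and 3 in SNHG1, and SNHG8 had the C alone. The annotated start given for GAS5 had none, and whether GAS5 carries the tract at another start was not tested. Of 35116 promoters in the same table, 4.07% opened with a C and a run of at least 5, searched on the transcript's strand at the annotated start only. Such a run is a description of these letters and was not linked to any value below.

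Levels are given as processed signal, an intensity on a linear scale, and ratios as the difference of log2 signals, each set relative to its own array's 75th percentile. That percentile, taken over all probes, was 165 on the vehicle array, 138 on the cordyceps array and 78.2 on the sunitinib array, so the sunitinib array was dimmer throughout, and 37.8% to 45.5% of probes were well above background. Without scaling between arrays, the median log2 ratio of all probes was -0.23 for cordyceps over vehicle and -0.98 for sunitinib over vehicle, against 0.00 for both as scaled. Every ratio of the sunitinib array below depends on this scaling, and one that lies between 0 and about 1 has no direction that holds without scaling. Leaving out the scaling moves all sunitinib over vehicle ratios down, so it cannot turn one that is already below 0. The 6 settings named below are this scaling, the same percentile over detected probes only, the median, quantile normalization, a model-based background correction (normexp) and no scaling. The error given with a ratio is the software's own for the 2 spots. For the members it was 0.20 to 0.23 on the log2 scale for cordyceps over vehicle and 0.20 to 0.30 for sunitinib over vehicle, and it covers measurement only, with no spread between cultures. The 3 arrays shared 1 slide and 1 scan, and both comparisons shared the vehicle array. In RNA from whole cultures, fewer cells of a type and less RNA per cell cannot be told apart. Of the renal and epithelial markers, 10 of 12 genes with a probe were well above background on every array, PAX8, PAX2 and KRT19 among them. CA9 and CDH1 were not. Of 13 probes compared, 4 were above 0 and 9 below for cordyceps over vehicle, and 8 above and 5 below for sunitinib over vehicle. CDH16 was at -2.24 ± 0.21 and PAX8 at -0.87 ± 0.20 for cordyceps over vehicle. CDH16 had signals of 1340, 238 and 452 on the vehicle, cordyceps and sunitinib arrays. MET was at -1.00 ± 0.20 for sunitinib over vehicle. Fibroblast markers were well above background for 4 of 6 genes on the vehicle and cordyceps arrays and 3 of 6 on the sunitinib array, with a summed signal of 44.2, 14.3 and 13.5 times the array's 75th percentile. On the vehicle, cordyceps and sunitinib arrays, COL1A1 had signals of 5308, 1069 and 385, DCN 707, 169 and 31.2 at its brighter probe, and LUM 383, 89.1 and 13.9, the last not well above background. PDGFRB differed from these, with sunitinib over vehicle log2 ratios of 0.49 and 0.66 as scaled, on signals of 121 and 81.1 and of 706 and 532, and cordyceps over vehicle ratios of -0.27 and -0.19. COL1A2 and COL3A1 were not well above background on any, and the part of these genes in the results was not tested. The summed signal of 5 immune and 5 endothelial marker genes was at most 5.19 times the 75th percentile on any array, with CD3E, MS4A1, KDR and PECAM1 not well above background. On the vehicle array 3 of the 5 genes of each list were well above background. CD14, with signals of 693, 374 and 116 on the vehicle, cordyceps and sunitinib arrays, CDH5, with 108, 79.7 and 60.4, and VWF were so on every array. A PTPRC probe was at 2.39 ± 0.37 for sunitinib over vehicle, on signals of 18.4 and 45.7, and the other PTPRC probes were not well above background on the sunitinib array.

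**Figure D1:**
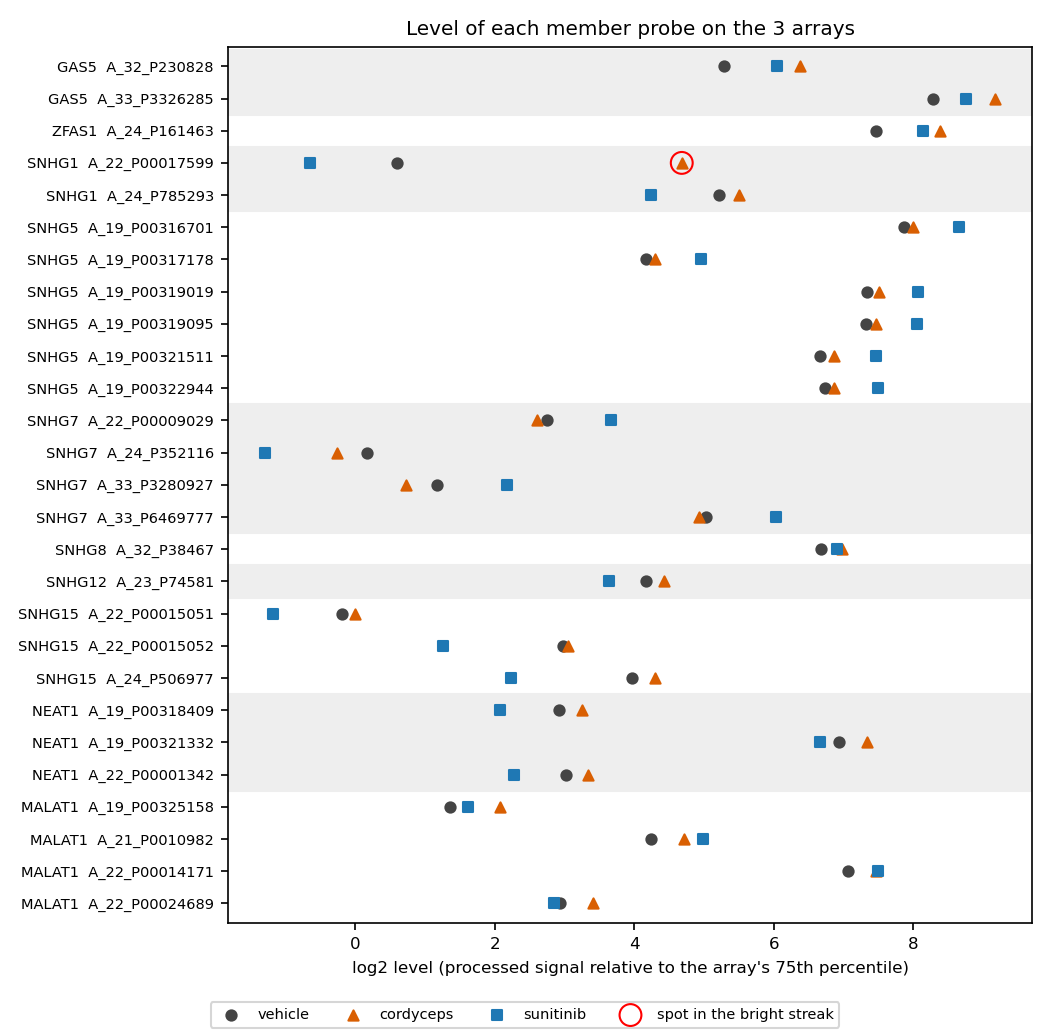
Log2 level of each of the 27 member probes on the vehicle (circle), cordyceps (triangle) and sunitinib (square) arrays, relative to the array's 75th percentile, with 1 array per condition and genes in alternating bands. The level spans probes, so only the horizontal distance within a row can be read; the ringed SNHG1 point at 4.68 is a spot in a bright streak of the cordyceps array.

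GAS5, the host of a cluster of box C/D snoRNAs and an RNA that accumulates when cells stop growing, had, with ZFAS1, the highest ratios of cordyceps over vehicle among the member spots outside a bright streak described with SNHG1. The signal of its probe A_32_P230828 was 6416 with vehicle, 11461 with cordyceps and 5148 with sunitinib. Its probe A_33_P3326285 had 51512, 79967 and 33984 in the same order. The cordyceps array was the brightest of the 3 for both probes. On the log2 scale the cordyceps over vehicle ratio was 1.09 ± 0.20 for the first probe, 2.13-fold, and 0.89 ± 0.20 for the second, 1.85-fold. These lay above 96.9% and 95.6% of all probes compared. The direction was the same under all 6 ways of scaling or correcting the arrays, with a range of 0.63 to 1.31. The sunitinib over vehicle ratios were 0.76 ± 0.20 and 0.47 ± 0.20 as scaled, and without scaling they were -0.32 and -0.60.

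ZFAS1, the host of SNORD12, SNORD12B and SNORD12C, had nearly the same ratios as GAS5. Its single probe had signals of 29091, 46384 and 22061 on the vehicle, cordyceps and sunitinib arrays. The cordyceps over vehicle log2 ratio was 0.93 ± 0.20, 1.90-fold, and stayed between 0.67 and 1.15 over the 6 settings. The sunitinib over vehicle log2 ratio was 0.67 ± 0.20 as scaled and -0.40 without scaling, so that its direction rested on the scaling, as for GAS5.

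SNHG5, the host of SNORD50A and SNORD50B, was measured by 6 probes, the most of any member, and they gave nearly 1 value. Their signals ran from 2960 to 38578 on the vehicle array, from 2720 to 35090 on the cordyceps array and from 2426 to 31709 on the sunitinib array. The cordyceps over vehicle log2 ratios were 0.12 to 0.19, inside the 95% limit of the error for each probe, and some settings put them below 0. The sunitinib over vehicle log2 ratios were 0.73 to 0.79, beyond that limit for all 6 and short of 2-fold for all 6, and turned to between -0.34 and -0.28 without scaling. The SD between the 6 probes was 0.026 for both comparisons, beside an error of 0.20 for each probe. The probes share 1 RNA sample per array and a transcript, and so are no replicates of the condition.

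SNHG7, the host of SNORA17A and SNORA17B, had probes that disagreed. The probe A_24_P352116, assigned in the files to a different SNHG7 transcript accession from the others, had signals of 186, 114 and 31.7 on the vehicle, cordyceps and sunitinib arrays. The brightest probe, A_33_P6469777, had 5381, 4210 and 5126. The probes A_33_P3280927 and A_22_P00009029 had 371, 227 and 353, and 1097, 844 and 989. The log2 ratio of sunitinib over vehicle was -1.47 ± 0.30 for the first of these probes, 2.78-fold lower, and 1.00 ± 0.20, 1.00 ± 0.21 and 0.92 ± 0.20 for the others, 2 of which just passed 2-fold. The lower value kept its direction under all 6 settings, from -2.55 to -0.66, whereas the 3 higher values turned to -0.07, -0.07 and -0.15 without scaling. A mean over the gene would hide this, since it was 0.36 with an SD between probes of 1.225. All 4 probes were below 0 for cordyceps over vehicle, at -0.46 to -0.10, with 2 of them above 0 under median scaling. Whether the probes read different isoforms was not tested.

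SNHG1, whose introns hold SNORD22 and SNORD25 to SNORD31, also gave unlike values, and there 1 spot lay in a defect. The probe A_22_P00017599 had signals of 249, 3535 and 49.8 on the vehicle, cordyceps and sunitinib arrays, and the probe A_24_P785293 had 6114, 6250 and 1482. The cordyceps over vehicle log2 ratio was 4.08 ± 0.21, 16.9-fold, for the first and 0.29 ± 0.20 for the second. The first spot lay in a bright streak that held 574 spots of the cordyceps array, and 29 of its 48 neighbours were more than 16-fold brighter there, after scaling, than on either other array. Of 4 negative control spots in the streak, 3 were well above background on the cordyceps array and 0 on the vehicle array. No other member probe lay in the streak, and the first value is left out of what follows where stated. In the sunitinib over vehicle comparison, which does not use that array, the probes had log2 ratios of -1.25 ± 0.25 and -0.97 ± 0.20, 2.38-fold and 1.96-fold lower, and both were below 0 under all 6 settings.

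**Figure D2:**
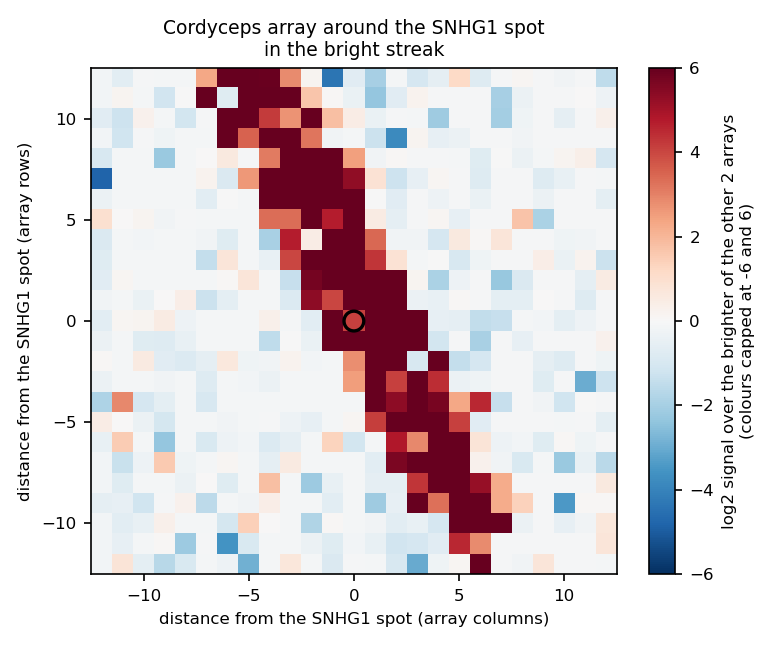
Signal of the cordyceps array around the SNHG1 probe A_22_P00017599 (black ring), as log2 over the brighter of the other 2 arrays, by distance in array rows and columns, with colours capped at -6 and 6. The red band is the streak, whose median over the 7 by 7 spots centred on the ring was 5.35, and the ring lies inside it.

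SNHG15, the host of SNORA9 and an RNA with a rapid turnover, had the lowest pair of ratios of the members on the sunitinib array. Its probe A_24_P506977 had signals of 2565, 2692 and 368 on the vehicle, cordyceps and sunitinib arrays. Its probes A_22_P00015052 and A_22_P00015051 had 1292, 1142 and 186, and 144, 138 and 34.4. The sunitinib array was the dimmest of the 3 for each probe by far more than its 75th percentile was lower. The sunitinib over vehicle log2 ratios were -1.73 ± 0.20, -1.72 ± 0.21 and -0.99 ± 0.30, that is 3.31-fold, 3.30-fold and 1.99-fold lower. The first lay below all but 1.48% of probes compared. All 3 stayed below 0 under the 6 settings, from -2.80 to -0.36. For cordyceps over vehicle the same probes had 0.33 ± 0.20, 0.08 ± 0.20 and 0.19 ± 0.23, none beyond the 95% limit of the error, and those at 0.08 and 0.19 were below 0 without scaling.

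SNHG12, the host of SNORA16A, SNORA44, SNORA61 and SNORD99, had signals of 2967, 2972 and 971 at its single probe. Its log2 ratio was 0.26 ± 0.20 for cordyceps over vehicle and -0.54 ± 0.20 for sunitinib over vehicle, the latter beyond the 95% limit of the error and between -1.61 and -0.53 over the 6 settings. SNHG8, the host of SNORA24, had signals of 16880, 17407 and 9410. Its log2 ratios of 0.30 ± 0.20 and 0.23 ± 0.20 were inside the 95% limit of the error, and the second was below 0 under median scaling, the normexp background and no scaling.

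**Figure D3:**
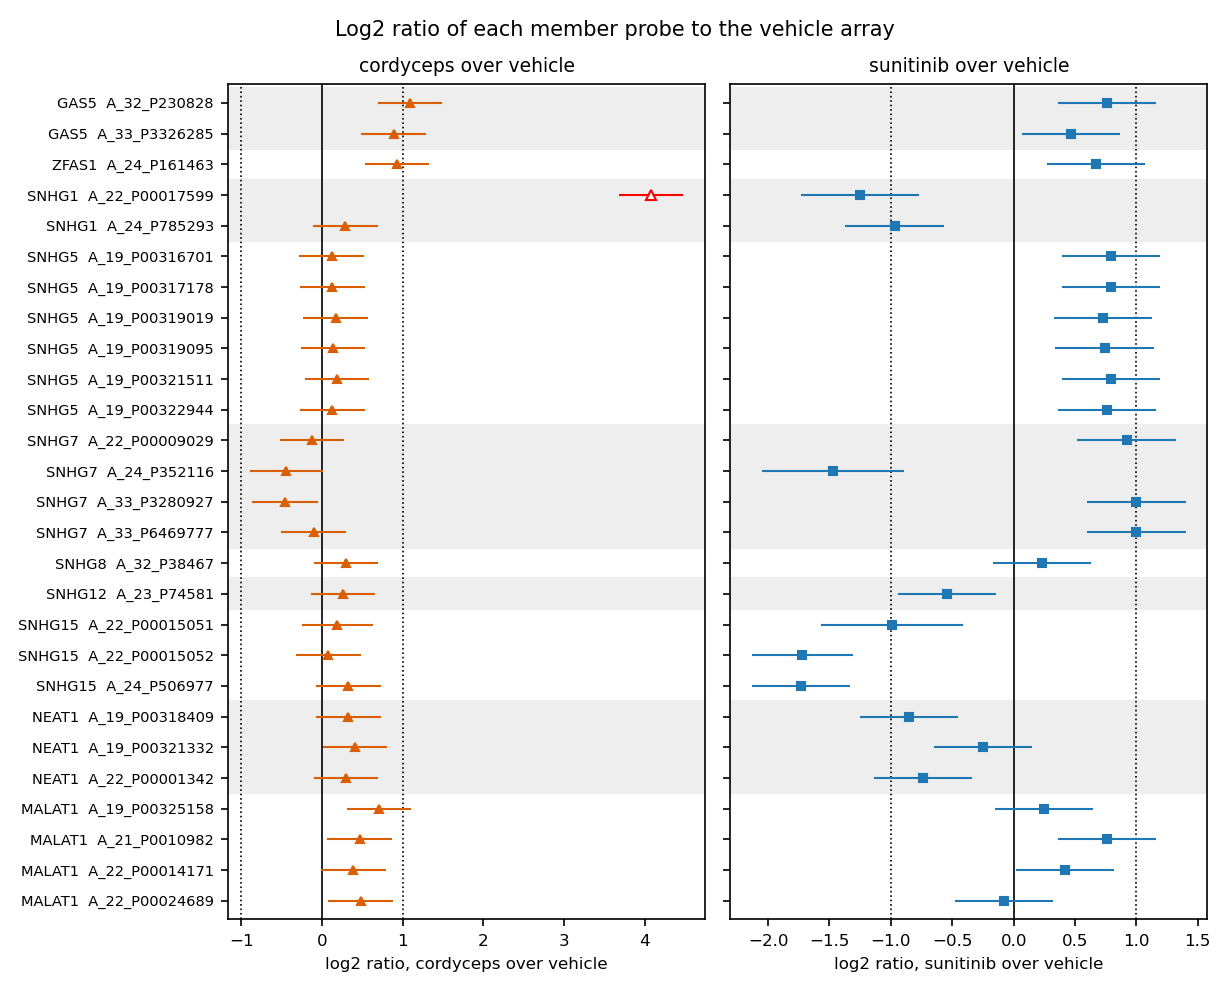
Log2 ratio of each member probe for cordyceps over vehicle (left) and sunitinib over vehicle (right), with bars for the 95% limit of the software's error of 2 spots and dotted lines at 2-fold. On the left GAS5 and ZFAS1 lie at 0.89 to 1.09 and the open red triangle is the SNHG1 spot in the streak; on the right SNHG15 lies at -1.73 to -0.99 and SNHG5 at 0.73 to 0.79, and the right-hand values above 0 turn negative without scaling between arrays.

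The snoRNAs themselves were read by 24 probes, 1 each, of 31 snoRNAs listed for these hosts, and SNORD50A, SNORD50B, SNORA17A, SNORA17B, SNORD78, SNORD79 and SNORD81 had none. Mature snoRNAs have no poly(A) tail, and whether a probe read the snoRNA or the unspliced host was not tested. None of the 24 differed by more than 2-fold for cordyceps over vehicle, where 3.6% of all 26872 probes compared were more than 2-fold higher and 2.49% lower. Their median log2 ratio was 0.25, with 2 bounds entered at 0.00, against 0.00 over all probes. Of the 7 snoRNA probes inside GAS5, SNORD75 and SNORD77 were not well above background on the cordyceps array and give no measured ratio. The other 5 were at -0.15 for SNORD80, -0.02 for SNORD47, 0.11 for SNORD44, 0.49 for SNORD74 and 0.64 for SNORD76, beside 0.89 and 1.09 for the spliced host. SNORD76 had signals of 300, 391 and 143 on the vehicle, cordyceps and sunitinib arrays. Those of ZFAS1 were -0.22 for SNORD12, 0.45 for SNORD12B and -0.26 for SNORD12C, beside 0.93 for the host. For GAS5 and ZFAS1, each host value was above those of all its snoRNAs measured on both arrays in this comparison.

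On the sunitinib array, 1 of the 24 snoRNA probes was more than 2-fold below its vehicle value and 0 above, where 5.67% and 8.08% of all 27147 probes compared were. This was SNORD47, encoded within GAS5, with signals of 664, 548 and 131 and a log2 ratio of -1.27 ± 0.21, which stands beside 0.47 and 0.76 for the 2 GAS5 probes. The highest was SNORD25 of SNHG1, at 0.93 ± 0.33, with signals of 40.4, 45.3 and 36.7. The 8 snoRNA probes of SNHG1 had a median of 0.11, beside -1.25 and -0.97 for the host. SNORA9 had 0.26 ± 0.21, with signals of 378, 387 and 215, whereas its host SNHG15 was at -1.73 to -0.99. SNORA61, SNORD99 and SNORA16A of SNHG12 were spread over -0.77, -0.14 and 0.46, and SNORA24 of SNHG8 was at -0.44. The host value of SNHG12, -0.54, lay within the range of its snoRNAs, and that of SNHG1 and SNHG15 lay below all of theirs. As for cordyceps, the host values of GAS5, and of ZFAS1 at 0.67, lay above all of their snoRNAs measured on both arrays. The highest of these snoRNAs were at 0.32 for GAS5 and 0.07 for ZFAS1. SNHG8, at 0.23, also lay above SNORA24.

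NEAT1 was measured by 3 probes. The signals of A_19_P00321332 were 20027, 22319 and 7981 on the vehicle, cordyceps and sunitinib arrays. Those of A_19_P00318409 were 1243, 1312 and 328, and those of A_22_P00001342 were 1337, 1384 and 381. The cordyceps array was the highest and the sunitinib array the lowest for each. The cordyceps over vehicle log2 ratios were 0.41, 0.33 and 0.30, each with an error of 0.20, and the first alone was beyond its 95% limit. The sunitinib over vehicle log2 ratios were -0.25 ± 0.20, -0.85 ± 0.21 and -0.74 ± 0.20, with the brightest probe the nearest to 0 and inside the 95% limit of its error. Each of the 6 ratios kept its direction over all 6 settings, with a range of -1.92 to -0.25 for sunitinib and 0.05 to 0.63 for cordyceps. NEAT1 has a short and a long isoform, and which of them each probe reads is not stated in the files used here.

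The protein partners of NEAT1 in paraspeckles were read by 28 probes of 16 genes. With sunitinib over vehicle, 2 of the 27 probes compared (7.41%) were more than 2-fold lower and 0 higher, beside 5.67% and 8.08% of all probes. The median log2 ratio was -0.50, against 0.00 over all probes. SFPQ, an essential paraspeckle protein that binds NEAT1, was at -1.30 ± 0.20, with signals of 3434, 1231 and 662 on the vehicle, cordyceps and sunitinib arrays. Its partner NONO was highest, at 0.30 ± 0.20. SFPQ also was the only paraspeckle probe more than 2-fold lower for cordyceps over vehicle, at -1.22 ± 0.20. HNRNPH3 was the only one higher, at 2.09 ± 0.21 for A_24_P338187 with signals of 205, 735 and 86.7, while its other probe was at 0.41 ± 0.20. These 2 probes are 3.7% higher and 3.7% lower of those compared for cordyceps over vehicle, beside 3.6% and 2.49% of all probes. The median of the list was 0.06 for that comparison.

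MALAT1 was measured by 4 probes, and each had a higher log2 level on the cordyceps array than on the vehicle array. Probe A_22_P00014171 had signals of 22169, 24395 and 14080 on the vehicle, cordyceps and sunitinib arrays. Probe A_21_P0010982 had 3104, 3602 and 2493. Probes A_22_P00024689 and A_19_P00325158 had 1253, 1460 and 564, and 423, 579 and 239. The cordyceps over vehicle log2 ratios, in this order, were 0.39 ± 0.20, 0.47 ± 0.20, 0.48 ± 0.20 and 0.71 ± 0.21. The last 3 were beyond the 95% limit of the error, none reached 2-fold, and all 4 stayed above 0 over the 6 settings, from 0.14 to 0.93. With sunitinib over vehicle the ratios were 0.42, 0.76, -0.08 and 0.25, a range of 0.84 within 1 gene, and all 4 were below 0 without scaling, at -1.15 to -0.32. No direction can therefore be given for MALAT1 on the sunitinib array.

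Proteins of the nuclear speckles, where MALAT1 resides, were read by 26 probes of 14 genes. For cordyceps over vehicle, 2 of the 25 compared (8.0%) were more than 2-fold lower and 0 higher, beside 2.49% and 3.6% of all probes. Both were of the splicing factor SRSF3, at -1.26 ± 0.20 and -1.12 ± 0.20. The highest was CLK1, a kinase of splicing factors, at 0.45, and the median was -0.04. On the sunitinib array, 7 of the 25 were more than 2-fold lower and 0 higher, beside 5.67% and 8.08% of all probes, with a median of -0.23. The lowest measured on both arrays was the splicing factor SRSF7, at -3.05 ± 0.25 with signals of 969, 569 and 55.7, and the highest was CLK1 at 0.39. SRSF3 had signals of 5596, 2157 and 554 at its brighter probe.

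Over all members, 2 of the 27 probes were more than 2-fold higher for cordyceps over vehicle, a GAS5 probe and the SNHG1 probe in the streak, and 0 were lower. Outside the streak these were 1 and 0 of 26, beside 2.89% higher and 2.51% lower among all probes outside it. Beyond the 95% limit of the error lay 8 higher and 1 lower of the 27, beside 12.6% and 11.4% of all probes. The median log2 ratio of the 27 was 0.29, with 23 above 0, and without the streak 0.27, with 22 of 26. Of the 27 signs, 17 held under all 6 settings, and the 10 that did not were those of SNHG5, 2 of SNHG7 and 2 of SNHG15. For sunitinib over vehicle, 2 probes were more than 2-fold higher, both of SNHG7, and 4 lower, of SNHG1, SNHG7 and SNHG15. That is 7.41% and 14.8% of the members, beside 8.08% and 5.67% of all probes. Beyond the 95% limit lay 14 higher and 9 lower, beside 22.0% and 17.3% of all probes. These counts are of probes and not of genes, and all SNHG5 probes are among the 14. The shares of all probes include bounds, 5272 for cordyceps and 5524 for sunitinib over vehicle, whereas no member ratio was a bound. The median was 0.42, and the quartiles were -0.79 and 0.76 against -0.32 and 0.41 over all probes. The members thus had values on both sides of 0 on the sunitinib array. The 11 probes whose sign held were all below 0: both of SNHG1, all 3 of SNHG15, all 3 of NEAT1, the SNHG12 probe, 1 of SNHG7 and 1 of MALAT1. Leaving out the scaling lowers every ratio of this comparison, and the highest member was at 1.00, so only signs below 0 could hold. A held sign here is therefore no measure of how firm a decrease is. The MALAT1 probe, at -0.08 ± 0.20, was inside the 95% limit of its error. The other 16 changed sign with the scaling.

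**Figure D4:**
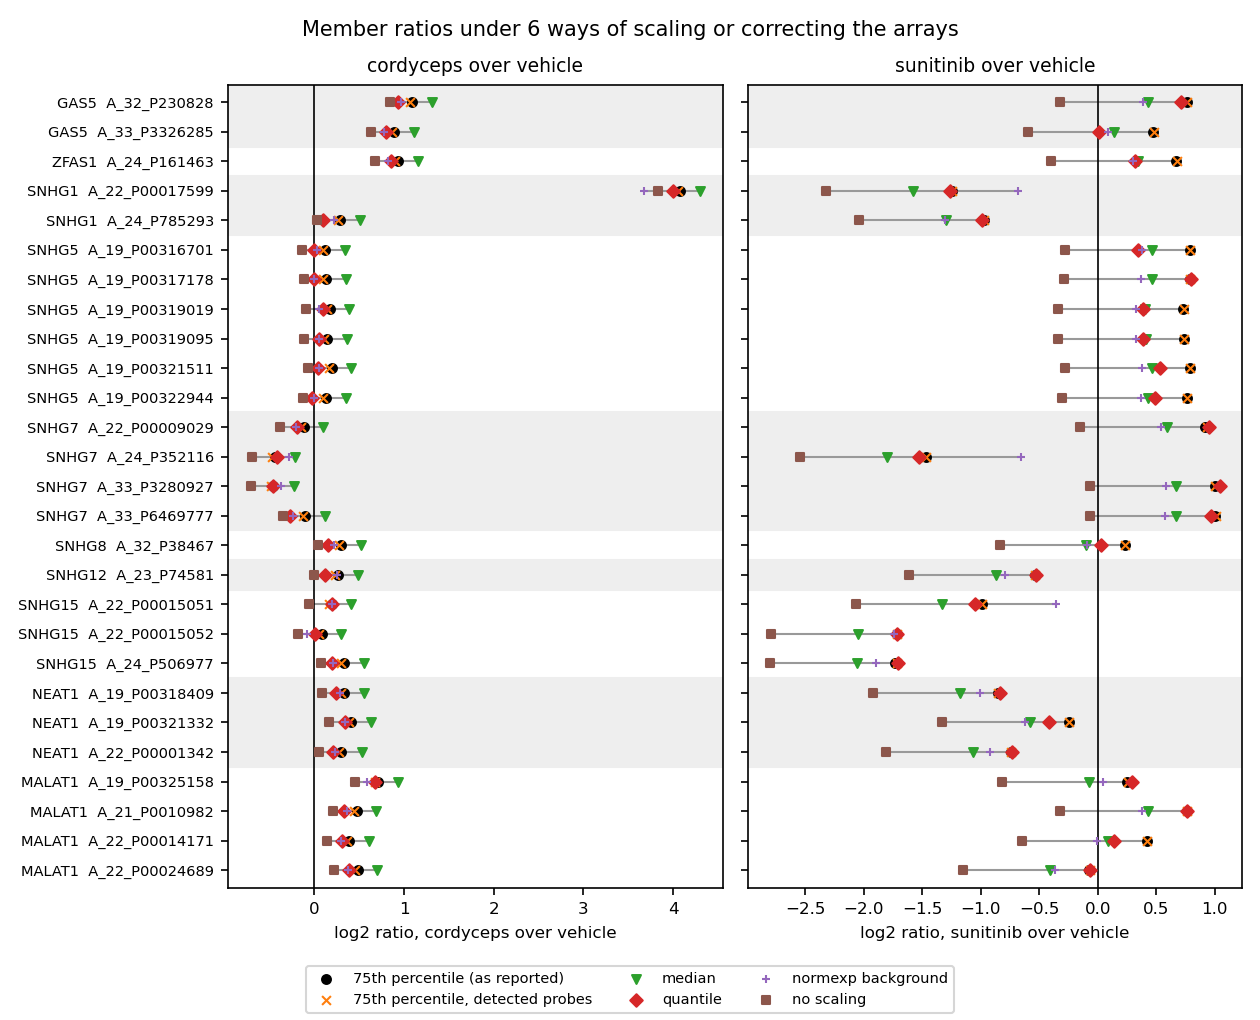
Log2 ratio of each member probe for cordyceps over vehicle (left) and sunitinib over vehicle (right) under the 75th percentile used in the report and 5 other ways of scaling or correcting the arrays, with a grey line from the lowest to the highest. On the right, every value without scaling (brown square) is below 0, while SNHG1, SNHG12, SNHG15 and NEAT1 are below 0 under all 6.

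The treated arrays were also set against each other. For sunitinib over cordyceps, 3 of 26 probes outside the streak were more than 2-fold higher, all of SNHG7, and 7 lower, where 9.05% and 8.3% of all probes outside the streak were. SNHG15 ran from -2.05 to -1.19, NEAT1 from -1.18 to -0.67 and SNHG1 was at -1.26 outside the streak, whereas SNHG5 ran from 0.56 to 0.67. GAS5 was at -0.42 and -0.34, and ZFAS1 at -0.25 ± 0.20.

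Other noncoding hosts outside the members were read by 28 probes of 15 genes, of which 26 were compared. For cordyceps over vehicle 0 were more than 2-fold higher or lower, beside 3.6% and 2.49% of all probes. The median was -0.01, and the measured values ran from -0.49 for SNHG11 to 0.92 for SNHG22. Of the sunitinib over vehicle ratios 1 was more than 2-fold higher, EPB41L4A-AS1 at 1.13 ± 0.20 with signals of 8755, 12564 and 9118. Lower were 2, SNHG21 at -1.37 ± 0.27 and SNHG29 at -1.00 ± 0.21. That is 3.85% and 7.69%, beside 8.08% and 5.67% of all probes. SNHG29 and SNHG21 also had a probe above 0, at 0.81 ± 0.20 and 0.83 ± 0.36. Both of these probes had a lower signal with sunitinib than with vehicle before scaling, so neither direction holds without it. Probes of 1 host thus differed in SNHG29 as in SNHG7. In SNHG21 the difference rests on a dim probe, with a signal of 35.6 on the vehicle array. The median was 0.23. Nonsense-mediated decay factors, which degrade spliced host RNAs, were read by 27 probes of 16 genes. More than 2-fold higher or lower were 0 of them in either comparison, beside the same shares of all probes as above. Their median log2 ratio was 0.02 for cordyceps over vehicle, from -0.63 for RBM8A to 0.36 for XRN1, and -0.18 for sunitinib over vehicle, from -0.99 for SMG9 to 0.48 for CASC3.

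**Figure D5:**
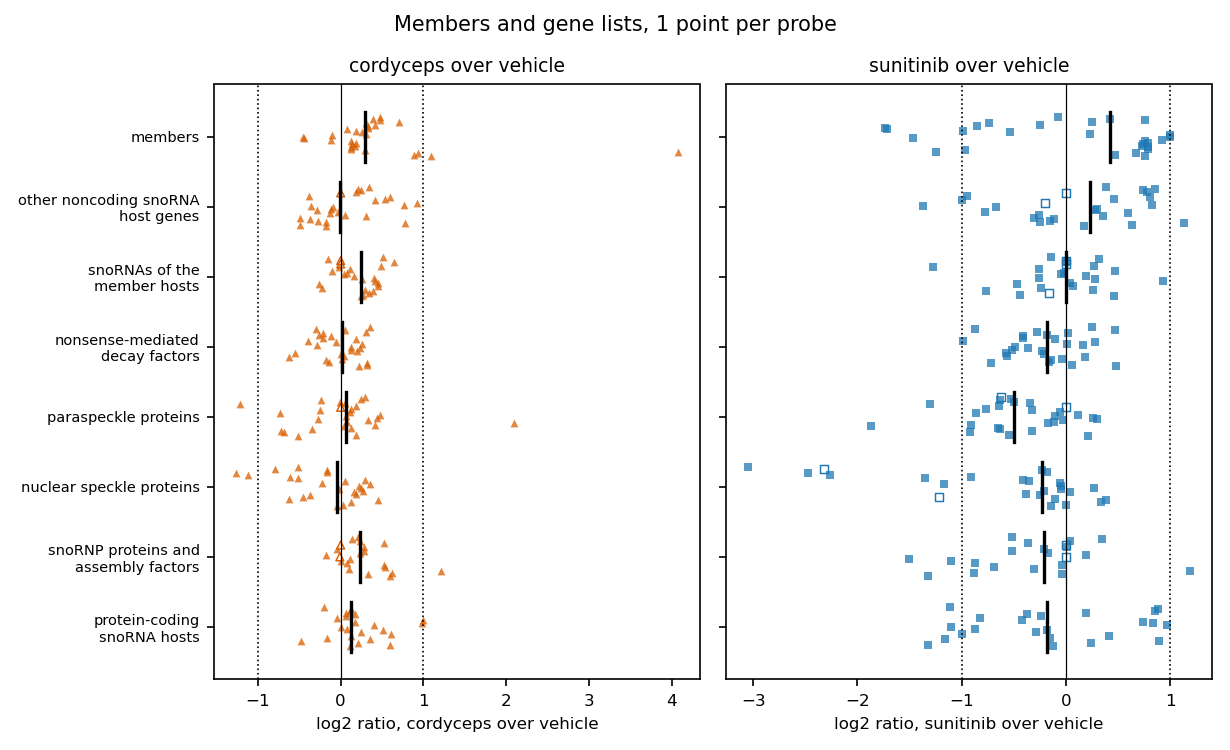
Log2 ratio of each probe of the members and of 7 gene lists for cordyceps over vehicle (left) and sunitinib over vehicle (right), with a black bar at the median over the probes compared, open symbols for bounds and dotted lines at 2-fold. On the left the snoRNAs lie within 2-fold and the decay factors around 0.02; on the right paraspeckle proteins have a median of -0.50 and nuclear speckle proteins reach -3.05, values measured after scaling between arrays.

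The genes whose pair of ratios lay nearest to that of the most extreme member probe were taken among 15869 named probes well above background on all arrays. For the SNHG1 probe in the streak these were MAGT1, TFDP2 and IL21R-AS1, at distances of 0.520 to 0.820 on the log2 scale, and all 3 spots lay in the streak as well. Outside the streak the most extreme member probe was A_24_P506977 of SNHG15. Its nearest genes were TNFRSF12A, a receptor of the TNF family, at 0.33 and -1.73 for cordyceps and sunitinib over vehicle, CD70, a ligand of that family, at 0.32 and -1.79, and CCDC18 at 0.35 and -1.80. The likeness rests on 2 ratios that share the vehicle array.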

How the data were processed

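The authors deposited, for each array, the output of Agilent Feature Extraction 11.5.1.1 (genome build hg19 in the header), in which values are intensity on a linear scale after background subtraction, and a table of processed intensity that equalled these values for 99.9% of probes within 0.01%, with no log and no scaling between arrays. According to the labels, 0.5 μg of RNA was labelled with Cy3. The methods describe another array and a ratio of 2 dyes, and from them only the 2-fold limit was taken. From the deposited intensity, outlier spots were dropped, spots averaged per probe, and log2 minus the array's 75th percentile taken. A probe was compared if well above background on at least 1 of 2 arrays, and a dim side was set to the lowest signal well above background, giving a bound. Probes were named by accession through RefSeq (31104 matched). With 1 array per condition there is no test, no p-value and no SD over cultures, and the number of arrays limits the precision. The 95% limit is 1.96 times the software's error. Members, 11 gene lists and rules were chosen with earlier results of these data known. Named genes are every member and, per list, the highest and lowest measured probe and those beyond 2-fold where 5 or fewer, with 3 nearest genes. One gene that the rule names is not reported here. Alternatives changed the scaling (detected probes, median, quantile, none), the background (limma 3.58.1 normexp, offset 50), the filter, outlier spots, the streak, the call rule and the averaging of probes. Bright areas are windows of 7 by 7 spots. Python 3.11.15, numpy 2.4.6, pandas 2.3.3 and R 4.3.3 were used, and the calculation was checked on simulated arrays.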

Additional observations from a re-analysis of the deposited data

How the results depend on the processing

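With 1 array per condition, no replicate could be left out, and no paired analysis was possible because no groups of replicates exist. For cordyceps over vehicle, member probes more than 2-fold higher numbered 4 under median scaling (median log2 ratio 0.51), 1 under quantile normalization, normexp and with the streak left out, and 1 without scaling (median 0.03), against 2 and 0.29 as reported. Counting beyond the 95% limit of the error in place of 2-fold gave 8 higher and 1 lower. Averaging probes left 1 gene more than 2-fold changed in place of 2, and 0 with the streak also left out, an alternative chosen after seeing the data. For sunitinib over vehicle, 2 higher and 4 lower became 0 and 8 under median scaling (median 0.09), 1 higher under quantile normalization (median 0.14), 0 higher under normexp (median 0.04), and 0 and 11 without scaling (median -0.65, against 0.42). The error limit gave 14 and 9. Averaging all probes of each gene left SNHG1, 2.16-fold lower, and SNHG15, 2.79-fold lower, of the 3 genes as reported. Leaving out the streak as well left SNHG15 alone, although the streak is on an array that this comparison does not use. Both SNHG7 probes at 1.00 reversed to -0.07 without scaling. The cause was not tested, except that the scaling shifts all probes of an array together. Settings that changed the filter, the outlier spots or the detected-probe percentile left these counts within 1.5 times.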

Other observations

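The proteins that build snoRNPs, the particles in which snoRNAs act, were read by 21 probes of 18 genes. For cordyceps over vehicle the median log2 ratio was 0.23. More than 2-fold higher was 1 probe (4.76%) and 0 were lower, beside 3.6% and 2.49% of all probes. This was NAF1, an assembly factor of box H/ACA particles, at 1.21 ± 0.33 with signals of only 35.4, 68.4 and 38.4 on the vehicle, cordyceps and sunitinib arrays. With sunitinib over vehicle the median was -0.21, with 1 probe higher, NAF1 at 1.19 ± 0.34, and 3 lower. That is 4.76% and 14.3%, beside 8.08% and 5.67% of all probes. The box C/D core proteins NOP58 and NOP56 were at -1.50 ± 0.20 and -1.10 ± 0.20, with signals of 9926, 8991 and 1671, and of 6802, 5725 and 1503. A dimmer NOP56 probe was at -0.87 ± 0.21, short of 2-fold. DKC1, the pseudouridine synthase of H/ACA particles, was at -1.32 ± 0.20, with 2128, 2701 and 404. Before any scaling, NAF1 was at 68.4 with cordyceps and 38.4 with sunitinib, against 35.4 with vehicle. The sunitinib over vehicle value of 1.19 thus rests largely on the scaling, and all of these signals are dim. The lowest measured for cordyceps over vehicle was PIH1D1, at -0.18 ± 0.20.

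Protein-coding genes that host snoRNAs, outside ribosomal protein genes, were read by 23 probes of 18 genes. None differed by more than 2-fold for cordyceps over vehicle, where 3.6% of all probes were higher and 2.49% lower. The values ran from -0.48 for the elongation factor EEF2 to 0.99 for 1 probe of the splicing factor SF3B3, with a median of 0.13. The other SF3B3 probes were at 0.17 and -0.04. With sunitinib over vehicle 0 of the 23 probes were more than 2-fold higher and 5 (21.7%) lower, beside 8.08% and 5.67% of all probes, with a median of -0.18. The lower ones were DKC1, EIF4A1 at -1.16 ± 0.20, WDR43 at -1.11 ± 0.21, HSPA9 at -1.00 ± 0.20 and the brighter NOP56 probe. The highest was PPAN, a ribosome assembly factor, at 0.97 ± 0.24. TPT1 had 0.86 and 0.88 at its brighter probes but 0.19 ± 0.20 at its dimmest. EEF2 had 0.89, and EEF1B2 had 0.24. Values above 0 in this comparison are relative to an array that was dimmer as a whole. DKC1 and NOP56 stand in both lists.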
